A study of Homo sapiens with 3 samples.

Results

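Glucose enters the cell through transporters such as GLUT1, is broken down to pyruvate by the enzymes of glycolysis and leaves as lactate through monocarboxylate carriers. Cancer cells are known for running this route at a high rate even when oxygen is present, and most of its genes are textbook targets of the hypoxia-inducible factors. The genes described here are 10 members of the route, fixed by name: the glucose transporter SLC2A1 (GLUT1), the enzymes HK2, GPI, ALDOA, GAPDH, PGK1, ENO1, PKM and LDHA, and the lactate exporter SLC16A3 (MCT4). They are 10 of the 33538 genes counted in each library, and all 10 were found once by symbol.

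The cells were HCT116, an established human colorectal cancer line, labelled p53plus throughout, and were profiled with a droplet-based 3′ kit that counts unique molecular identifiers (UMIs) per cell. Mix2 held irradiated cells (8 Gy) marked with antibody hashtag tag8, and repopulated cells collected on day 30 after 8 Gy and marked with tag7 (R). It also held non-irradiated cells (0 Gy) marked with tag6 (NC). They were loaded at about 10000, 1000 and 1000 cells, in that order. Mix1 was a separate library of irradiated giant cells (8 Gy) isolated on day 5 or 8 and cultivated to day 10 or 11, whose 4 isolation groups carried no tag and could not be separated. The irradiated cells of Mix2 were prepared in the same way as those of Mix1 and were split by tag count into strong IR (at least 3160 tag8 counts) and weak IR (500 to 3159), with at least 374 tag6 counts required for NC and 104 tag7 counts for R, and the own tag at 80% or more of the 3 tags. HCT116 is 1 line, and the labels name 1 preparation per population, so every population is 1 sample.

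After cells with under 200 genes or 10% or more mitochondrial UMIs had been left out, 2216 strong IR, 6322 weak IR, 15630 Mix1, 633 R and 810 NC cells remained, with 27127545, 46991674, 150680612, 4731705 and 6104377 UMIs. The median cell held 11861.5 UMIs in strong IR, 7216 in weak IR, 8995.5 in Mix1, 6933 in R and 7160.5 in NC, and the median mitochondrial share was 5.65%, 6.49%, 3.41%, 7.16% and 6.0% in the same order. The libraries had 59 barcodes in common, 46 of them among the cells kept. The epithelial markers EPCAM, KRT8, KRT18, KRT19 and CDH1 passed 10 counts per 1000000 UMIs (CPM), whereas CDX2 and VIL1 did not (7.70 and 0.22 CPM in strong IR, 6.06 and 0.33 CPM in NC). None of 16 fibroblast, immune, endothelial and erythroid markers reached 10 CPM in any population, and together they summed to 11.7, 10.2, 10.6, 9.93 and 9.67 CPM. Of 24 mitotic genes, 24 were lower in strong IR than in NC by the rule given below, 0 in weak IR, 23 in Mix1 and 0 in R. The shares of all genes were 15.4%, 0.481%, 10.0% and 1.77%, in the same order. The median log2 ratio of the mitotic genes to NC was -0.24 in weak IR, beside -0.03 over all measured genes, and -0.02 in R beside -0.04.

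Promoter sequence from RefSeq (GRCh38.p14) was found for all 10 genes, in 18 windows of the 250 bases before a start site. 4 of these are printed 5′ to 3′ on the strand of the gene, because SLC2A1 was the member called higher in strong IR and Mix1, while PGK1, ENO1 and LDHA, with which it shares regulation by hypoxia-inducible factors in textbooks, were not called higher. Capitals mark the letters ACGTG and GCGTG, the core of the hypoxia response element, on either strand (CACGT and CACGC on the strand shown), where CACGTG counts once on each strand.
SLC2A1, chr1:42958869-42959118, minus strand: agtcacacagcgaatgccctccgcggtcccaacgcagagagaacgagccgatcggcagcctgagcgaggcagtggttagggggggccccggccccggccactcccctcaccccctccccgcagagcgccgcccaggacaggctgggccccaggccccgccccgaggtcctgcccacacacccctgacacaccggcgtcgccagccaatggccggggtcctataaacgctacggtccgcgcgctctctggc
PGK1, chrX:78103998-78104247, plus strand: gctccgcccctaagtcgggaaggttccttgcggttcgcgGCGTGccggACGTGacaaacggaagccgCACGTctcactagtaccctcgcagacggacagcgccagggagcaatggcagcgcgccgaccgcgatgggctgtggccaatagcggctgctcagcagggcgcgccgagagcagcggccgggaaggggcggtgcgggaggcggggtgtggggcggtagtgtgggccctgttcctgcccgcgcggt
ENO1, chr1:8878687-8878936, minus strand: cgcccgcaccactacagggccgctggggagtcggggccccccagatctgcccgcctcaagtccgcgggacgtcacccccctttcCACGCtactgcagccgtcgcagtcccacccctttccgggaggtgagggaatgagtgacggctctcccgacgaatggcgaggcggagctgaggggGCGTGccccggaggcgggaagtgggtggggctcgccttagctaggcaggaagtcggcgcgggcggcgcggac
LDHA, chr11:18394313-18394562, plus strand: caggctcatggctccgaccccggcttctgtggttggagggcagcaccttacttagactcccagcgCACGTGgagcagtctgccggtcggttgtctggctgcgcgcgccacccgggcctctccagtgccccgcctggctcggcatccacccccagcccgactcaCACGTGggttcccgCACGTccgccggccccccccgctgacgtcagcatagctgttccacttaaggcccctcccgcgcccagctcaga

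The SLC2A1 window held 0 matches, the PGK1 window 3, the ENO1 window 2 and this LDHA window 5, and 43.2% of all 35116 RefSeq windows of the same length held at least 1. The other LDHA window, which is not printed, held 1. Over the 10 genes, 14 of 18 windows held a match, and SLC2A1 and PKM had none. A match is a run of letters and not a shown binding site, and its absence from a window says nothing of sites elsewhere.

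SLC2A1 encodes GLUT1, the transporter that brings glucose across the plasma membrane (chr1:42925353-42958893, minus strand, GENCODE 44 on GRCh38, ENSG00000117394). It was counted at 110.5 CPM in strong IR (95% Poisson interval 106.6 to 114.5), 47.1 CPM in weak IR (45.2 to 49.1), 75.6 CPM in Mix1 (74.2 to 77.0), 36.8 CPM in R (31.5 to 42.7) and 36.7 CPM in NC (32.0 to 41.8). Strong IR was therefore highest, followed by Mix1 and then weak IR, and R and NC could not be separated. These levels rested on 2998, 2213, 11392, 174 and 224 UMIs, and here as below the intervals cover counting error only, since 1 sample per population allows no test across samples.

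Against NC, SLC2A1 was 3.01-fold higher in strong IR (95% interval 2.63 to 3.47, exact conditional binomial) and 2.06-fold higher in Mix1 (1.81 to 2.36). A gene was called when its CPM ratio was at least 1.5 or at most 0.667, the interval excluded 1 and either population had 10 CPM. By that rule 1 of the 9 members measured in strong IR was higher, SLC2A1, against 9.92% of the 7722 genes measured, and 0 were lower, against 15.4%. The ratio of SLC2A1 exceeded that of 99.0% of the measured genes in strong IR and 98.1% in Mix1.

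The same gene was the only member called between strong and weak IR (2.35-fold, 2.22 to 2.48, with 1 of 9 higher against 7.23% of genes and 0 lower against 10.6%) and between strong IR and R (3.01-fold, 2.58 to 3.52, with 1 of 9 higher against 8.76% and 0 lower against 11.4%). In weak IR the ratio to NC was 1.28 (1.12 to 1.48), below the fold required, and 0 members were called higher or lower, against 0.709% and 0.481% of genes. In R it was 1.002 (0.82 to 1.23), with 0 members called in either direction against 1.42% and 1.77% of genes.

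**Figure D1:**
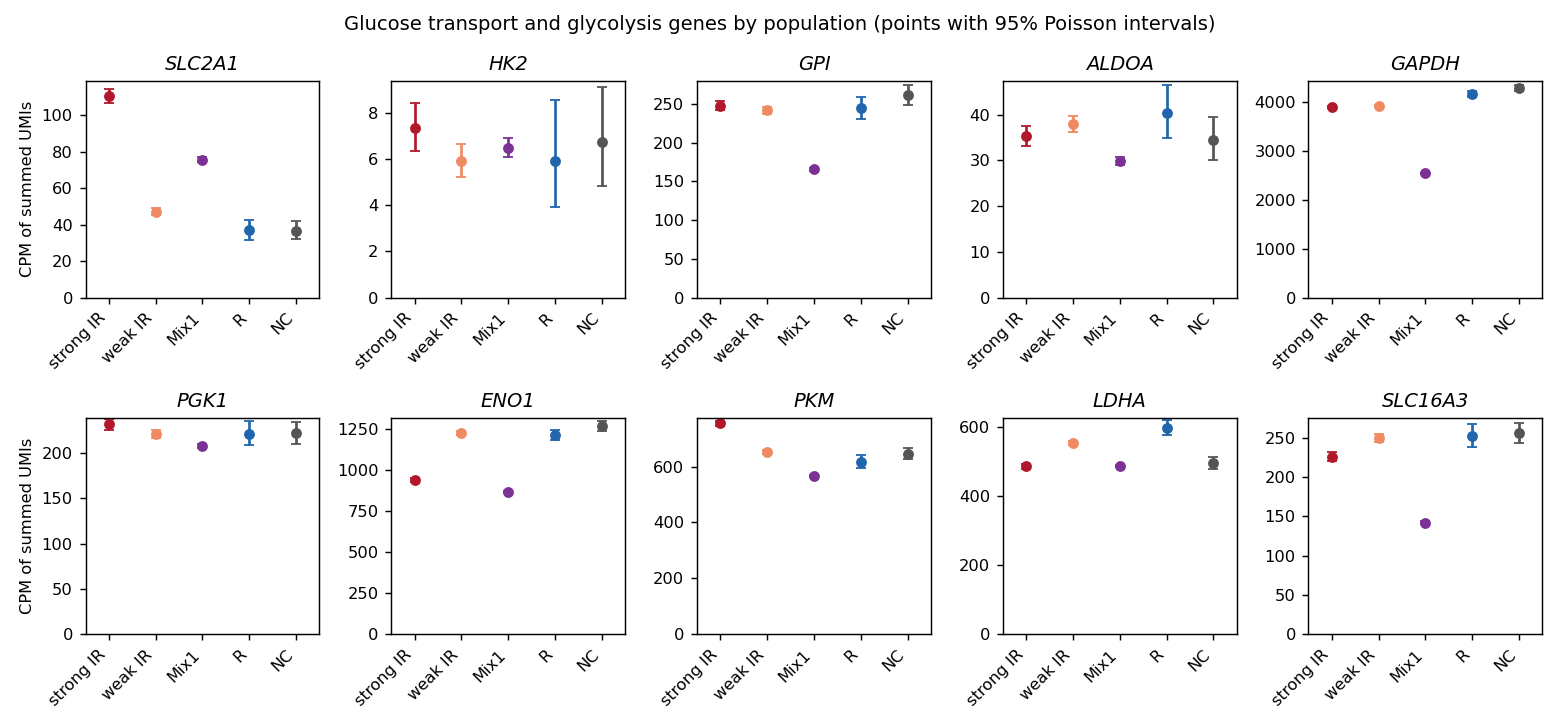
CPM of summed UMIs (linear axes from 0) of the 10 genes in strong IR, weak IR, Mix1, R and NC, each point with its 95% Poisson interval. SLC2A1 stands at 110.5 CPM in strong IR and 75.6 CPM in Mix1 against 36.7 CPM in NC, whereas GPI, GAPDH and SLC16A3 are lowest in Mix1.

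Before depth was equalised, SLC2A1 had at least 1 UMI in 58.4% of strong IR, 25.9% of weak IR, 38.7% of Mix1, 22.6% of R and 23.5% of NC cells. After each cell was thinned to 5000 UMIs, which left 2066, 5223, 10667, 537 and 699 cells, the shares were 36.6% (Clopper-Pearson 34.5 to 38.7), 18.7% (17.7 to 19.8), 26.1% (25.3 to 26.9), 14.9% (11.99 to 18.2) and 17.3% (14.6 to 20.3). Thus the order of strong IR, Mix1 and the rest was kept at equal depth, and the intervals of weak IR, R and NC overlapped. Thinned cells with 3 or more SLC2A1 UMIs made up 4.02% of strong IR, 0.67% of weak IR and 1.43% of Mix1 cells, against 0 of 537 R cells and 0 of 699 NC cells, counts that allow up to 0.559% and 0.429%. A single line gives no cell type that lacks the transporter. In droplets without cells (20682 droplets of 10 to 100 UMIs in Mix2) SLC2A1 made up 58.0 CPM from 20 UMIs (35.4 to 89.5), a level whose interval includes that of NC and lies below that of strong IR.

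SLC2A1 also differed within populations along with mitotic genes. Among thinned cells, it was 162 CPM in strong IR cells with at most 2 UMIs of the 24 mitotic genes, and 57.0 CPM in those with 10 or more. Weak IR showed 111 and 38.0 CPM, and Mix1 111 and 42.5 CPM, in the same order. In R and NC the mitotic-gene-low cells numbered only 29 and 16, with 3 and 5 SLC2A1 UMIs, so that these levels are imprecise, while the mitotic-gene-high cells had 31.2 and 37.8 CPM.

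The share of thinned cells in the mitotic-gene-high class was 31.3% in strong IR, 75.2% in weak IR, 47.4% in Mix1, 78.8% in R and 84.1% in NC. Within that class, SLC2A1 was 1.51-fold the NC level in strong IR (1.19 to 1.93), 1.01-fold in weak IR (0.82 to 1.24), 1.13-fold in Mix1 (0.93 to 1.38) and 0.83-fold in R (0.60 to 1.13). Within the mitotic-gene-low class it was 2.59-fold in strong IR (1.10 to 8.01) relative to the 16 NC cells. In the same class it was 1.78-fold in Mix1, 1.77-fold in weak IR and 0.33-fold in R, each with an interval that included 1. For Mix1 the interval thus included 1 in the mitotic-gene-high and in the mitotic-gene-low class. The 3.01-fold and 2.06-fold ratios over all cells were therefore smaller among cells rich in mitotic genes. What part the makeup of the populations had in the ratios over all cells was not tested further.

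SLC2A1 was also split by the mitochondrial share of a cell's UMIs, a split chosen after the levels had been seen. Below a share of 10%, its level rose in each higher bin in Mix1 only. In strong IR it was 111, 113, 97.1 and 130 CPM at shares of 0 to 4%, 4 to 6%, 6 to 8% and 8 to 10%, and in Mix1 68.3, 71.2, 102 and 119 CPM. NC had 28.6, 35.7, 34.0 and 61.0 CPM over the same bins, from 10, 102, 81 and 31 UMIs. Strong IR lay above NC in each of these bins. Weak IR had 95.5 CPM in the lowest bin, where its median cell held 1701.5 UMIs, and 40.9 to 57.6 CPM in the others. The part of the mitochondrial share in the result was not tested beyond these bins.

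**Figure D2:**
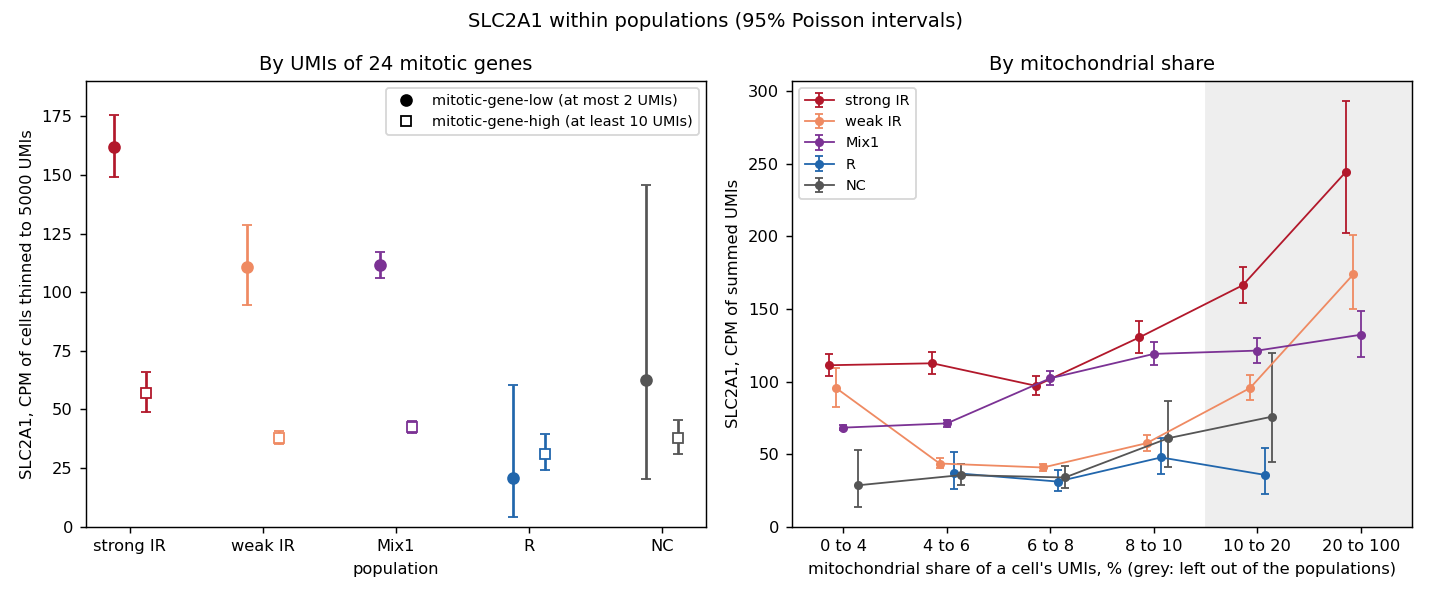
SLC2A1 within populations, with 95% Poisson intervals: on the left CPM of thinned cells with few or many UMIs of 24 mitotic genes, on the right CPM by mitochondrial share, where bins of under 20 cells are left out and the grey zone holds cells removed by the 10% limit. Mitotic-gene-low cells reach 162 CPM in strong IR against 57.0 CPM in mitotic-gene-high cells, and strong IR reaches 245 CPM at shares of 20% or more.

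By tag8 count, SLC2A1 was 43.6 CPM at 500 to 999 counts, 43.6 CPM at 1000 to 1999, 56.5 CPM at 2000 to 3159, 101 CPM at 3160 to 6319, 125 CPM at 6320 to 12639 and 107 CPM at 12640 and above. The bins on either side of the limit of 3160 thus differed by 56.5 against 101 CPM, and the highest bin was not the top. Median depth was 9184 and 11841 UMIs in the bins next to the limit, and 10499.5 in the highest.

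The genes whose log2 ratios to NC over strong IR, weak IR, Mix1 and R lay nearest to those of SLC2A1 (1.59, 0.36, 1.04 and 0.00) were PLCD3, CST3, FHL2, FAM210B and ALDH1A3, by Euclidean distance among 3016 genes with 50 CPM. PLCD3, a phospholipase C, had 1.59, 0.25, 0.97 and 0.06. CST3, the secreted inhibitor of cysteine proteases cystatin C, had 1.62, 0.27, 1.17 and 0.10. These 5 were the nearest of many and are a description only.

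HK2, the hexokinase that traps glucose in the cell as glucose 6-phosphate (chr2:74834127-74893359, plus strand), was scarce in all populations. It had 7.34 CPM in strong IR, 5.89 in weak IR, 6.48 in Mix1, 5.92 in R and 6.72 in NC, all under the 10 CPM required, and so made up the 1 of 10 members not measured in any comparison. Its ratio to NC was 1.09 in strong IR with an interval of 0.78 to 1.57, which does not exclude a level 1.5-fold that of NC.

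GPI, the isomerase that makes fructose 6-phosphate (chr19:34359480-34402413, plus strand), had 248 CPM in strong IR, 242 in weak IR, 165 in Mix1, 245 in R and 261 in NC. Only Mix1 stood apart, at 0.63-fold of NC (0.60 to 0.67). ALDOA, the aldolase that splits the phosphorylated hexose (chr16:30064164-30070457, plus strand), had 35.3, 38.0, 29.9, 40.4 and 34.6 CPM, and was called in no comparison. It shares its strand and most of its length with another annotated gene, AC093512.2, at 0.81 CPM in strong IR and 0.49 CPM in NC, so reads that fit both may be missing from its level.

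GAPDH, which oxidises glyceraldehyde 3-phosphate and makes NADH (chr12:6534512-6538374, plus strand), had 3900 CPM in strong IR, 3923 in weak IR, 2542 in Mix1, 4171 in R and 4293 in NC. Strong IR was at 0.91-fold (0.90 to 0.92) and R at 0.97-fold (0.95 to 0.99) of NC, whereas Mix1 was called lower, at 0.59-fold (0.58 to 0.60). PGK1, the kinase that makes the first ATP of the route (chrX:77910739-78129295, plus strand), differed little, with 231, 221, 207, 221 and 221 CPM. Its ratios ran between 0.94 (0.89 to 0.99) in Mix1 and 1.04 (0.98 to 1.11) in strong IR.

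ENO1, the enolase that makes phosphoenolpyruvate (chr1:8861000-8879190, minus strand), had 939 CPM in strong IR, 1224 in weak IR, 866 in Mix1, 1213 in R and 1266 in NC. Strong IR was at 0.74-fold (0.72 to 0.76) and Mix1 at 0.68-fold (0.67 to 0.70) of NC, both with intervals below 1 but short of the fold required. By tag8 count, ENO1 was lower in each higher bin, from 1234 CPM at 500 to 999 counts to 722 CPM at 12640 and above. PKM, the pyruvate kinase (chr15:72199029-72231819, minus strand), had 754, 653, 566, 618 and 646 CPM, that is 1.17-fold of NC in strong IR (1.13 to 1.21) and 0.88-fold in Mix1 (0.85 to 0.90). The irradiated cells of Mix2 with strong tags and of Mix1 thus lay on opposite sides of NC for PKM, and neither was called.

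LDHA, the dehydrogenase that turns pyruvate into lactate (chr11:18394560-18408425, plus strand), had 486 CPM in strong IR, 554 in weak IR, 488 in Mix1, 598 in R and 495 in NC. Its ratio to NC was 0.98 (0.94 to 1.02) in strong IR and 0.99 (0.95 to 1.02) in Mix1, and 1.21 (1.15 to 1.27) in R, the highest of the members there but under the fold required. SLC16A3, which exports lactate with a proton (chr17:82217934-82261129, plus strand), had 226, 250, 142, 252 and 256 CPM. It was lower in Mix1 than in NC (0.55-fold, 0.53 to 0.58) and at 0.88-fold (0.83 to 0.93) in strong IR.

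**Figure D3:**
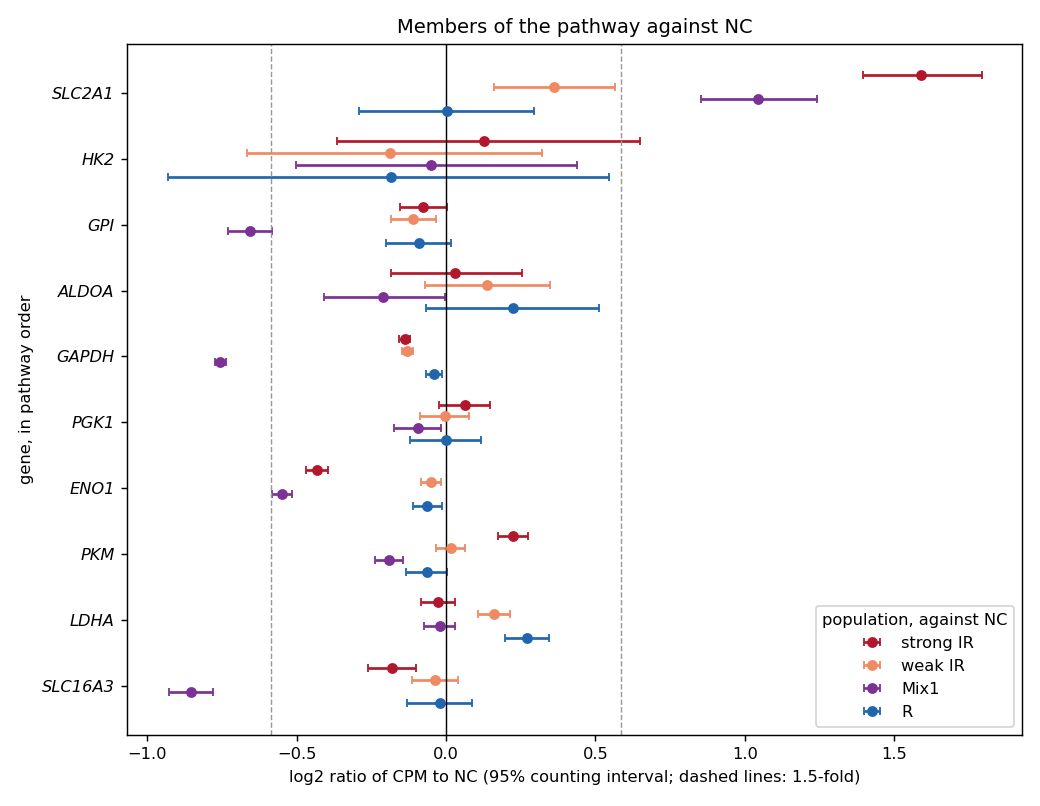
Log2 ratio of CPM to NC of each member, from glucose uptake at the top to lactate export at the bottom, with 95% counting intervals and dashed lines at 1.5-fold. SLC2A1 lies beyond the line at 1.59 in strong IR and 1.04 in Mix1, and the Mix1 points of GPI, GAPDH and SLC16A3 lie beyond the lower line.

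In Mix1, then, 1 of 9 measured members was higher than in NC, against 6.97% of 7662 genes, and 3 were lower, GPI, GAPDH and SLC16A3, against 10.0%. The median log2 ratio of the measured members was -0.21 in Mix1, beside -0.08 over all measured genes, and -0.03 in strong IR beside -0.11, 0.00 in weak IR beside -0.03 and -0.02 in R beside -0.04. The members made up 0.694% of all UMIs in strong IR, 0.716% in weak IR, 0.509% in Mix1, 0.740% in R and 0.752% in NC. Mix1 is another library than NC, so that preparation, irradiation and library cannot be told apart in that comparison. Within the mitotic-gene-high cells the Mix1 ratios of GPI, GAPDH and SLC16A3 were 0.67 (0.62 to 0.72), 0.64 (0.62 to 0.65) and 0.60 (0.56 to 0.65).

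ENO1, LDHA, GAPDH and SLC16A3 were lower in the mitotic-gene-low cells of strong IR, weak IR and Mix1, where SLC2A1 was higher. In thinned strong IR cells, mitotic-gene-low against mitotic-gene-high, ENO1 had 810 and 1098 CPM, LDHA 410 and 574 CPM, GAPDH 3603 and 4134 CPM and SLC16A3 212 and 251 CPM, while PKM had 846 and 669 CPM. In Mix1 the same split gave 630 and 1061 CPM for ENO1, 372 and 566 CPM for LDHA, 2137 and 2736 CPM for GAPDH and 115 and 163 CPM for SLC16A3. Weak IR had 965 and 1248, 486 and 568, 3490 and 3983, and 207 and 251 CPM for the same genes. Mitotic-gene-high against mitotic-gene-low, NC was at 1.33 (1.07 to 1.70) for ENO1 and 1.81 (1.03 to 3.52) for SLC16A3. R was at 1.79 (1.16 to 2.91) for SLC16A3 and, the other way, 0.87 (0.80 to 0.94) for GAPDH. The remaining intervals of these genes in NC and R included 1. In strong IR, ALDOA had 35.6 CPM in mitotic-gene-low and 25.1 CPM in mitotic-gene-high cells, and PGK1 245 and 223 CPM. Among mitotic-gene-high cells alone, ENO1 was at 0.85-fold of NC in strong IR (0.82 to 0.89) and 0.83-fold in Mix1 (0.80 to 0.85), and LDHA at 1.15-fold (1.08 to 1.24) and 1.14-fold (1.08 to 1.20).

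**Figure D4:**
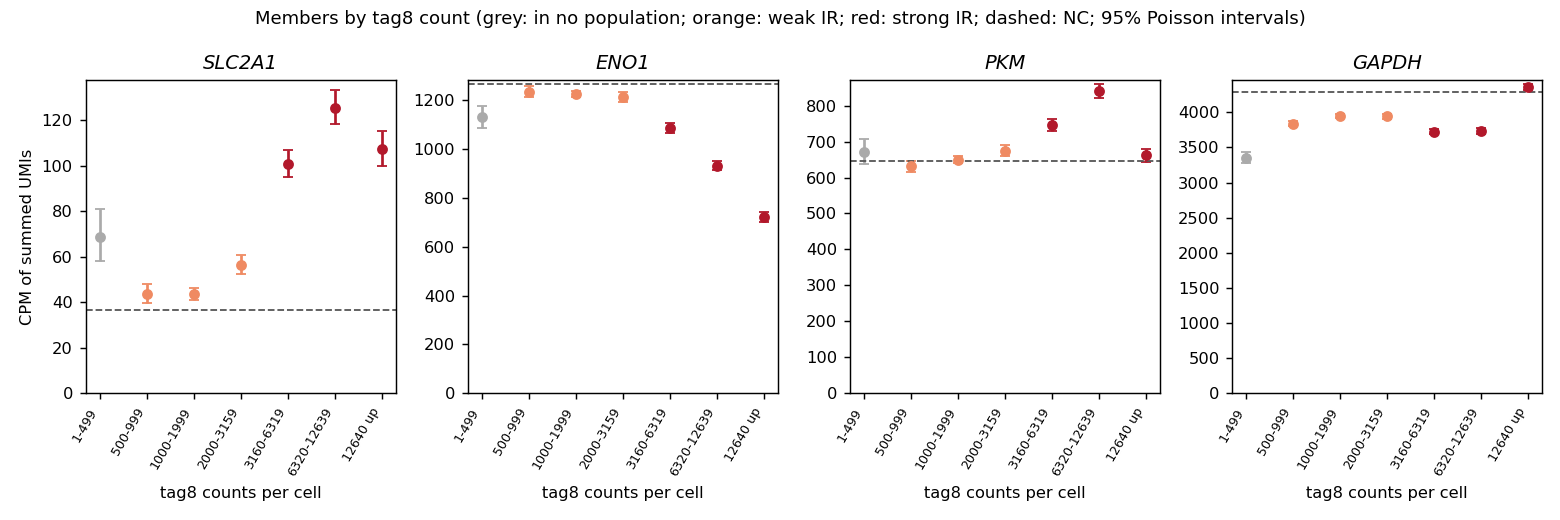
CPM of 4 members by tag8 count per cell (linear axes from 0, 95% Poisson intervals, dashed line at the NC level), with cells of 1 to 499 counts in grey, weak IR in orange and strong IR in red. SLC2A1 steps to 101 CPM at 3160 to 6319 counts, and ENO1 is lowest, at 722 CPM, in the highest bin.

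From cell to cell the members varied almost independently at this depth. Over the 45 pairs, the median Spearman correlation across thinned cells was 0.02 in strong IR, 0.01 in weak IR, 0.02 in Mix1, 0.03 in R and 0.02 in NC. The highest was 0.21, between GAPDH and LDHA, in both strong IR and Mix1, and the lowest -0.14, between SLC2A1 and GAPDH, in strong IR. Cells of 1 population share a library and a preparation, and values so near 0 in sparse counts carry no finding.

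Among the other enzymes of the route, 11 of 20 were measured in strong IR, of which 1 was higher and 1 lower than in NC, against 9.92% and 15.4% of all genes. ALDOC, the brain-type aldolase, was higher in strong IR (27.7 against 9.67 CPM in NC, 2.86-fold, 2.20 to 3.80), Mix1 (14.6 CPM, 1.51-fold, 1.17 to 1.99) and R (19.0 CPM, 1.97-fold, 1.40 to 2.78). ALDOC was under 10 CPM in NC and passed the limit through the other populations. ADPGK, an ADP-dependent glucokinase, was lower in strong IR (10.3 against 16.7 CPM, 0.62-fold, 0.49 to 0.78). In Mix1 the lactate dehydrogenase LDHB (680 against 1081 CPM, 0.63-fold) and the platelet-type phosphofructokinase PFKP (78.1 against 117 CPM, 0.67-fold) were lower. Mix1 thus had 1 of 11 higher, against 6.97% of all genes, and 2 of 11 lower, against 10.0%. R had 1 of 11 higher, against 1.42%, and 0 lower, against 1.77%. In weak IR 0 of 11 were called, against 0.709% higher and 0.481% lower.

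The remaining named enzymes were called nowhere. In strong IR against NC, HK1 had 16.7 and 12.5 CPM, PFKL 44.9 and 40.5 CPM, PFKM 57.8 and 45.2 CPM, TPI1 897 and 1048 CPM, and PGAM1 294 and 342 CPM. The lactate importer SLC16A1 had 29.7 and 35.1 CPM, and PFKFB3, which raises the activator of phosphofructokinase, 14.0 and 10.3 CPM. TIGAR, a p53 target that lowers the same activator, was 1.60-fold higher in strong IR (31.0 against 19.3 CPM, 1.32 to 1.96).

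Some genes were called where pyruvate and glucose 6-phosphate leave the route. DLAT, a subunit of pyruvate dehydrogenase, was lower in strong IR (20.2 against 34.7 CPM, 0.58-fold, 0.49 to 0.68). It was 1 of 10 measured in the list of pyruvate entry to mitochondria, against 15.4% of all genes, and the others were not called against NC. In the pentose phosphate pathway 1 of 7 genes measured was higher in strong IR, PGLS (96.0 against 63.9 CPM, 1.502-fold), against 9.92% of all genes. In Mix1, 1 of 7 was higher, PGLS (99.8 CPM, 1.56-fold), against 6.97%, and 1 lower, PGD (61.9 against 111 CPM, 0.56-fold), against 10.0%. Of 11 other glucose transporters 1 was measured, SLC2A11, with 21.0 CPM in strong IR and 18.3 CPM in NC, and it was not called.

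Of the hypoxia-inducible genes outside glycolysis, 8 of 18 measured in strong IR were higher than in NC and 0 lower, against 9.92% and 15.4% of all genes. ANGPTL4, NDRG1 and BHLHE40 reached 10 CPM in strong IR and not in NC, so this count is a description. Among the 14 with at least 10 CPM in NC itself, a limit chosen after the data were seen, 5 were higher and 0 lower, against 6.73% and 16.3% of all genes under that limit. These 5 were the mitophagy receptor BNIP3L (42.9 against 18.7 CPM, 2.30-fold), the MYC antagonist MXI1 (51.5 against 25.6 CPM, 2.02-fold), the peptide hormone ADM (36.0 against 19.3 CPM, 1.86-fold), the mTORC1 inhibitor DDIT4 (113 against 66.7 CPM, 1.70-fold) and the collagen prolyl hydroxylase P4HA1 (89.9 against 57.2 CPM, 1.57-fold). The rest of the 8, under 10 CPM in NC, were the secreted lipase inhibitor ANGPTL4 (11.5 against 3.60 CPM, 3.18-fold), NDRG1 (18.0 against 7.37 CPM, 2.45-fold) and the repressor BHLHE40 (10.5 against 5.08 CPM, 2.08-fold). In Mix1, 5 of 17 were higher (ANGPTL4, BNIP3L, MXI1, NDRG1 and ADM), in weak IR 1 of 16 (NDRG1) and in R 2 of 17 (NDRG1 and ANKRD37), against 6.97%, 0.709% and 1.42% of all genes, with 0 lower in each. With at least 10 CPM required in NC, 3 of 14 were higher in Mix1, against 4.85% of all genes. In weak IR and in R 0 of 14 were, against 0.467% and 0.645%. ANGPTL4 (2.50-fold, 1.63 to 4.03) and BHLHE40 (1.68-fold, 1.17 to 2.51) fell under 10 CPM in weak IR and so were not measured there. Several of these genes also answer to p53 or nutrient stress.

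Among regulators, HIF1A, the oxygen-regulated subunit whose control is mostly on the protein, had 70.9 CPM in strong IR, 94.8 in weak IR, 82.3 in Mix1, 87.7 in R and 89.6 in NC. EPAS1 (HIF-2α) was higher in strong IR (22.7 against 12.5 CPM, 1.82-fold, 1.43 to 2.34) and in Mix1 (20.5 CPM, 1.65-fold). ARRDC4, an arrestin that lowers glucose uptake and is induced by sugar through MondoA, was higher in strong IR (10.7 against 3.60 CPM, 2.98-fold, 1.93 to 4.82) and in Mix1 (11.2 CPM, 3.12-fold). ARRDC4 passed the limit of 10 CPM through these populations, and with 3.98 CPM in weak IR and 2.11 CPM in R it was not measured there. Of the 7 regulators with at least 10 CPM in NC, 1 was higher in strong IR and in Mix1 (EPAS1), against 6.73% and 4.85% of all genes, and 0 in weak IR and R.

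**Figure D5:**
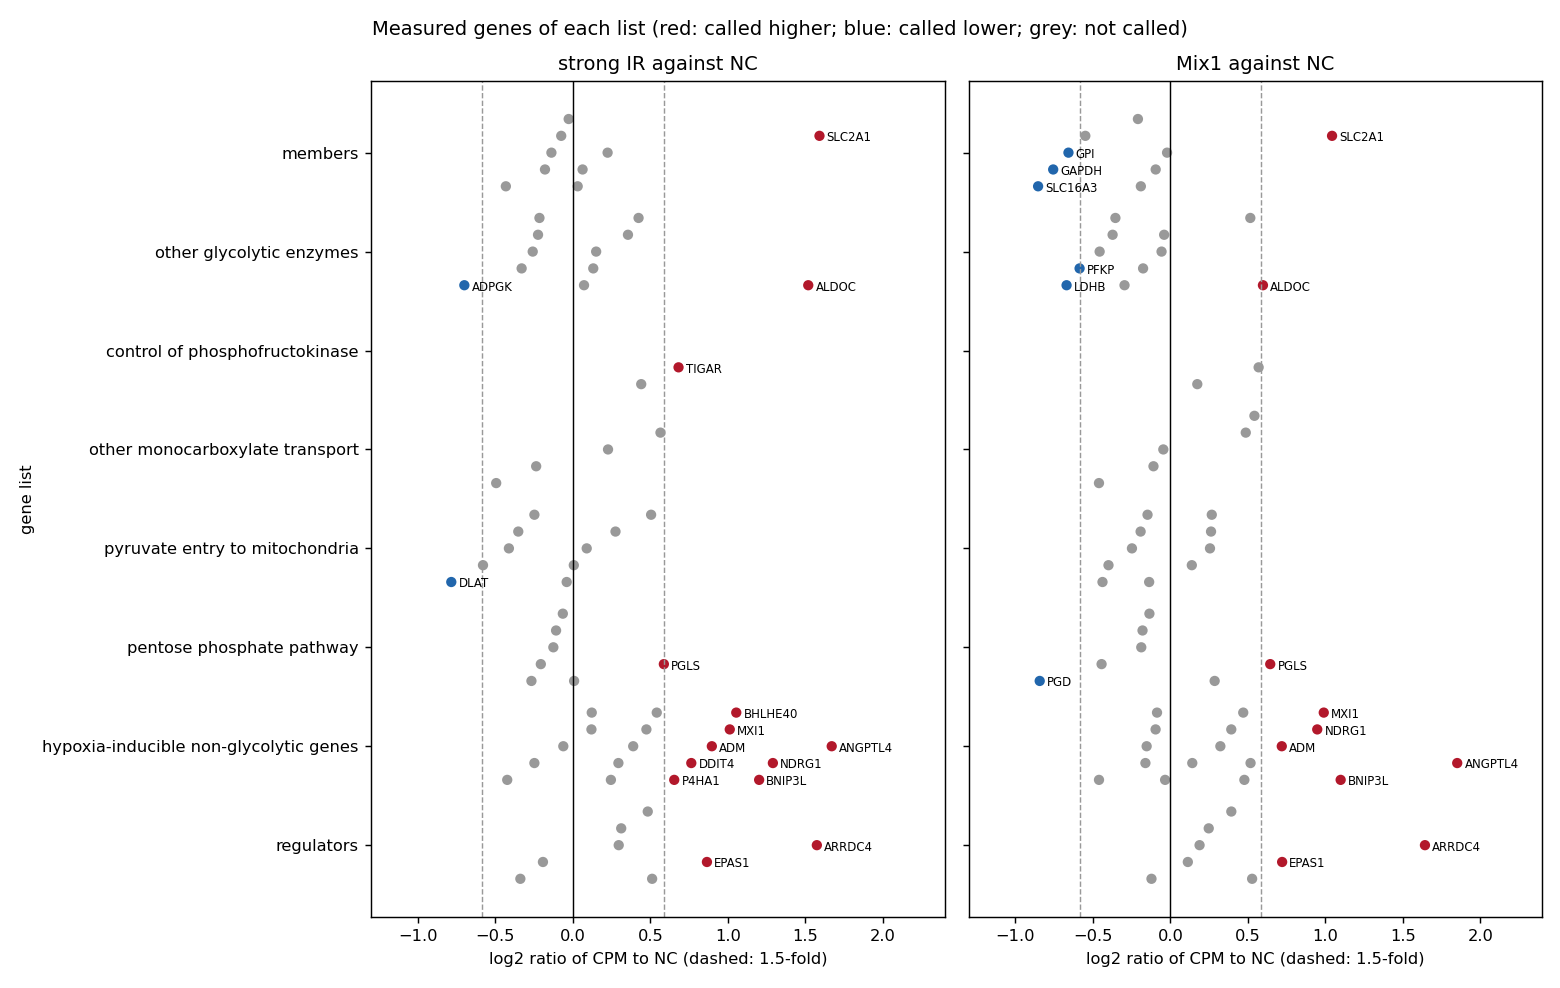
Log2 ratio of CPM to NC of every measured gene of each list in strong IR and in Mix1, with dashed lines at 1.5-fold and called genes in red (higher) or blue (lower). In strong IR the called genes include SLC2A1 among the members, ALDOC and ADPGK among the other enzymes and 8 hypoxia-inducible genes outside glycolysis.

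With the own tag at 95% or more, NC kept 88 cells and R 44, SLC2A1 rested on 24 and 27 UMIs there, and its ratio to NC became 4.17 in strong IR, 1.69 in weak IR, which was then called, and 1.75 in R. With the strong limit raised to 6320 tag8 counts, ENO1 was called lower (0.66-fold), as were 24.5% of all genes. With a fold of 2 required, 0 members were lower in Mix1, against 1.93% of all genes. In strong IR, 5 of the 18 measured hypoxia-inducible genes were higher at that fold, against 3.43%. With a minimum of 50 CPM instead, 3 were higher (MXI1, DDIT4 and P4HA1), against 8.0%, and the others that passed it, BNIP3 and FAM162A, were not called.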

How the data were processed

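The deposited files hold raw UMI counts per gene and barcode, which the authors obtained with Cell Ranger on GRCh38 (3.1.0 in the Mix1 header and 3.0.1 in the Mix2 headers), together with 3 hashtags in Mix2. Seurat 2.3 is named in the submitters' processing notes. The unfiltered Mix2 matrix had 0 differing entries over the cell barcodes and served only for droplets without cells. Kept were 15630 of 17019 Mix1 and 11652 of 13888 Mix2 barcodes, of which 1671 fell in no population. For each population the UMIs of its cells were added and expressed as CPM. No doublet caller was run. The tag share removes Mix2 droplets whose own tag is under 80% of the tag counts, so droplets with a smaller part of other tags stay. At 95% or more, 88 of 810 NC cells and 44 of 633 R cells were kept. Whether the other cells were droplets of mixed tags was not tested. Droplets with several cells of the same tag are not removed in Mix2, and nothing removes droplets with several cells in Mix1. Intervals at 95% are exact (Poisson, conditional binomial, Clopper-Pearson). Those of the ratios were run on simulated Poisson counts, the model they assume. That run held no spread between cells or samples, so it cannot show how the intervals hold under such spread. UMIs remove PCR copies, and the intervals cover counting error only.

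The members, gene lists and rules were chosen with earlier results of these data known. Named genes are all members, the 9 further genes of the route fixed by name, called genes of the other lists and the 5 nearest to SLC2A1 and to SLC16A3. Alternatives changed the cell filters, tag limits, weighting, depth, scaling (TMM, edgeR 4.0.16, which gives no test here), cell-free RNA and call limits. GAPDH, PGK1, ENO1, PKM, LDHA and ALDOA have processed pseudogenes whose reads may be lost or shared. Positions came from GENCODE 44, matched by gene ID for 10 of 10 members. Python 3.11.15, scipy 1.17.1 and R 4.3.3 were used.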

Additional observations from a re-analysis of the deposited data

Results flagged for a closer look

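SLC2A1 was above the NC level of 36.7 CPM in cells that enter none of the populations. It had 57.0 CPM (52.3 to 62.0) in the 1671 Mix2 cells kept without a population, whose median was 2640 UMIs. In the 1067 of them with tag8 as own tag but under 500 counts it had 68.8 CPM (58.1 to 80.9), at a median of 963 UMIs. Among barcodes removed for 10% or more mitochondrial UMIs it had 130 CPM (124 to 136) in 2236 Mix2 barcodes and 124 CPM (117 to 132) in 1389 Mix1 barcodes. In the same Mix1 barcodes GAPDH was 1537 CPM and ENO1 560 CPM, against 4293 and 1266 CPM in NC.

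In droplets without cells, HK2 made up 20.3 CPM from 7 UMIs (8.16 to 41.8) and PGK1 287 CPM from 99 UMIs (233 to 349), against 6.72 and 221 CPM in NC cells. The other members were at or below their NC level there, SLC2A1 excepted, as with SLC16A3 at 116 CPM from 40 UMIs.

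PKM was at 1.17-fold of NC in strong IR and 0.876-fold in Mix1, with intervals on opposite sides of 1. The difference between these ratios was not tested, and Mix1 is another library.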

How the results depend on the processing

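Of 238 counts of called members under an alternative, 231 stayed within 1.5 times the count reported. In strong IR against NC, 1 member was lower with the strong limit at 6320 tag8 counts, 1 with a lower fold limit (the smallest tried), and 0 otherwise. Under these limits 24.5% and 31.6% of all genes were lower, in that order. In weak IR against NC, 1 was higher with the own tag at 95% and 1 with the lower fold limit, SLC2A1 each time. The shares of all genes there were 1.55% and 3.45%. In Mix1 against NC, 0 members were lower with a fold of 2, against 1.93% of all genes. In strong IR against weak IR and against R, 1 member each was lower with the lower fold limit, against 27.4% and 25.5% of all genes. SLC2A1 stayed higher in strong IR under the 15 alternatives in which its ratio was recomputed, from 2.79-fold (mitochondrial limit of 5%) to 4.17-fold (own tag at 95%), and in Mix1 under 14, from 1.66-fold to 2.75-fold under the same alternatives. Of 890 log2 ratios of members recomputed, 721 stayed inside the counting interval reported, 169 left it and 0 called values changed sign. SLC2A1 in weak IR ran from 1.20-fold (only cells with 4 to 8% mitochondrial UMIs, added after the data were seen) to 1.69-fold, and in R from 0.89-fold (thinned) to 1.75-fold. Hypoxia-inducible genes called higher in strong IR, 8 as reported, were at most 11 under any alternative. They were 3 with a minimum of 50 CPM, which few of the list passed, and 5 of 18 measured with a fold of 2. With at least 10 CPM in NC itself (added after the data were seen) they were 5 of 14. The shares of all genes under these limits were 8.0%, 3.43% and 6.73%, in that order. The calls of the other lists were recomputed under that last limit and no other. Subtracting cell-free RNA was run for Mix2 only, and it and equal weighting of cells carry no interval. The cause of these shifts was not tested. No paired analysis was possible because each population is 1 sample. Depth limits HK2 in all populations and R, where SLC2A1 rests on 174 UMIs.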

Other observations

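The genes whose ratios to NC were nearest to those of SLC16A3 (log2 -0.18 in strong IR, -0.04 in weak IR, -0.85 in Mix1 and -0.02 in R) were FRA10AC1, DHX40, PPP6R2, DDX1 and GAPDH, among 3016 genes. DDX1, an RNA helicase, had -0.18, 0.04, -0.81 and -0.13, and GAPDH itself -0.14, -0.13, -0.76 and -0.04. All 6 had log2 ratios of -0.76 or less in Mix1 and of -0.24 or more in the other populations. The genes were picked as the nearest of many on these same ratios, so their likeness to SLC16A3 follows from the choice and is a description only.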
